A study of Mus musculus with 9 samples.

Results

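The genes described here are the Zfp zinc finger genes expressed in activated mouse CD8+ T cells, which kill virus-infected and tumour cells. Of 24391 genes in the batch-corrected count table, 337 carried a symbol made of Zfp and a number, and 233 of these had a mean count of at least 100 over 9 libraries and form the group. The other 104 lay below that mean, 7 of them with 0 counts in every library. The members were chosen by symbol and by mean count over all libraries, and not by the difference between treated and untreated cells. Just above the threshold were Zfp658 with a mean count of 101.4, Zfp583 with 103.8 and Zfp93 with 113.7, and just below it Zfp931 with 98.6, Zfp566 with 95.9 and Zfp438 with 94.9. Taken over 1 group alone, 2 members (Zfp383 and Zfp658) reached 100 only in LSD1i libraries and 1 (Zfp628) only in NT libraries. Zfp658 had a mean count of 135 in LSD1i and 74.6 in NT libraries, so its place in the group came from the treated libraries and its difference is not independent of the choice.

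The study compared CD8+ cells activated with an inhibitor of LSD1 (LSD1i, 4 libraries) with cells that were not treated (NT, 5 libraries), all collected at 72 h. Both groups were cultured in RPMI medium with interleukin 2 at 100 U/mL. The sources used here do not give the inhibitor's name and dose or the strain, genotype and age of the mice, and the labels do not say whether libraries came from separate animals or cultures. The spread that p-values are measured against is therefore that between libraries, and may be technical.

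Most Zfp genes encode C2H2 zinc finger proteins, in which a pair of cysteines and a pair of histidines hold a zinc ion and neighbouring fingers read a stretch of DNA. Many also carry a KRAB domain, which recruits the corepressor TRIM28 and, through it, the histone methyltransferase SETDB1, and silences retroelements and imprinted genes. LSD1, encoded by Kdm1a, removes methyl groups from histone H3 and works in corepressor complexes that zinc finger factors such as GFI1 bring to DNA.

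The libraries held 15163983 to 29245278 raw counts. The deposited tables disagree on 4 libraries: those called LSD1i 1 and 2 and NT 1 and 2 in the batch-corrected table carry the opposite treatment in the raw table. The batch-corrected names were used throughout. The authors' correction treated the libraries as a first batch (replicates 1 and 2) and a second (replicates 3 to 5), recovered here from the tables since the labels name no batch. NT 1 stood apart, with 13.3% of its raw reads on the ribosomal RNA gene Rn45s, against 1.66% to 2.87% in the other libraries. Marker sums are CPM taken on the total count of each library, without TMM adjustment. For 5 CD8 T cell markers they were 1520 to 1670 in LSD1i and 1290 to 1470 in NT libraries. Markers of CD4 T cells summed to 1.01 to 1.9 in LSD1i and 0.189 to 0.463 in NT libraries, and those of B, myeloid, NK and erythroid cells stayed below 1 in every library. All other levels are CPM with counts scaled to TMM-adjusted library size. Kdm1a itself averaged 119.6 ± 5.77 CPM in LSD1i and 125.5 ± 13.1 CPM in NT libraries (SD, n = 4 and 5; adjusted p = 0.818). Gfi1 rose to 322 ± 30.4 CPM in LSD1i, against 134 ± 12.5 CPM in NT libraries. In raw counts with the batch-corrected names, the log2 fold change of Gfi1 was 1.24 in the first batch and 1.29 in the second, where both tables name the libraries alike. With the raw table's names its sign in the first batch is the opposite.

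With LSD1 inhibition, 5 of 233 Zfp genes rose and 0 fell (edgeR's quasi-likelihood test, Benjamini-Hochberg adjusted p under 0.05 over 11981 genes). Those that rose were Zfp658, Zfp318, Zfp945, Zfp516 and Zfp277. They are 2.15% of the group, and among the 9357 other genes that reached the same minimum mean count 2.05% rose and 0.887% fell. The share that rose was thus close to this background. The other genes were more abundant, with a median of 44.3 CPM, against 18.3 CPM for the members, so the sets are not matched by level. Without Zfp658, whose place in the group came from the treated libraries, 4 rose. At an unadjusted p under 0.05, 16 members (6.87%) were higher and 4 (1.72%) lower, against 7.16% and 6.03% of other genes, and DESeq2 called 7 higher and 0 lower, against 3.37% and 1.89% of other genes. In the authors' deposited table, 0 of the 233 members carried the authors' mark of a changed gene, of 94 genes marked as higher and 44 as lower. A false discovery rate under 0.05 there was held by 6 members (the 5 that rose and Zfp568) and by 385 of all 20052 genes listed.

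**Figure D1:**
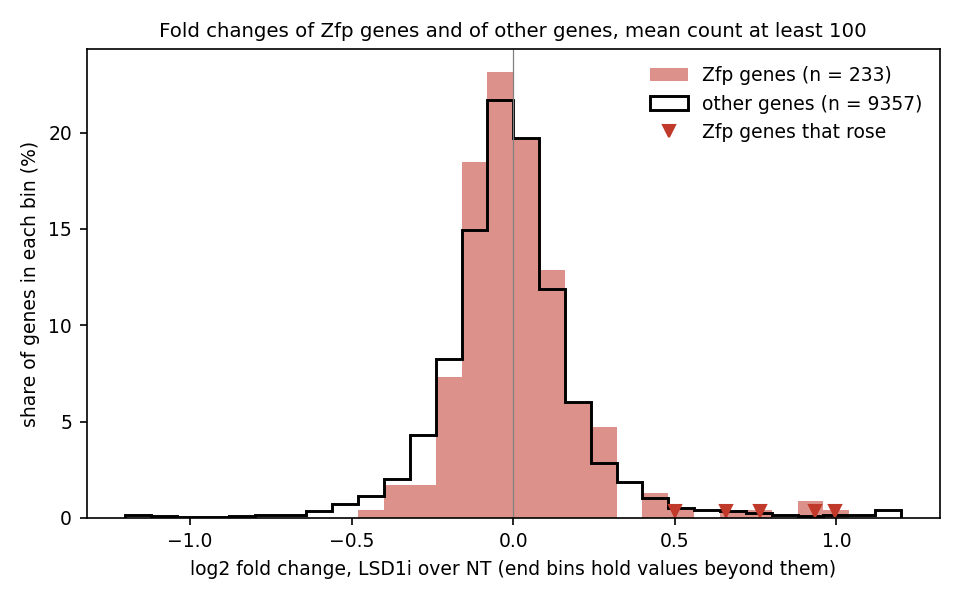
The horizontal axis is the log2 fold change of LSD1i over NT and the vertical axis the percentage of genes in each bin, for 233 Zfp genes (filled) and 9357 other genes (outline), with triangles at the 5 Zfp genes that rose. Both distributions centre near 0, with medians of -0.01 for the Zfp genes and -0.02 for the other genes.

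Most members lay close to no difference. The median log2 fold change was -0.01 over the members, with quartiles of -0.10 and 0.09, and -0.02 over the other genes, with quartiles of -0.12 and 0.08. Large differences were few, as the histogram of fold changes shows. A log2 fold change of at least 0.5 in either direction was seen in 6 members, or 2.58%, and in 366 other genes, or 3.91%. One of at least 1 was seen in 0 members, Zfp658 at 0.997 lying just under it, and in 82 other genes. LSD1i and NT libraries did not overlap in 11 members that were higher and in 1, Zfp944, that was lower in LSD1i, which is 5.15% of members. Among the other genes 4.2% were higher and 2.92% lower without overlap.

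Zfp658 is a KRAB zinc finger gene on chromosome 7 with 21 fingers, and its human counterpart ZNF658 is known from zinc-responsive transcription. Its level was 7.06, 6.09, 7.96 and 7.46 CPM in LSD1i 1 to 4, against 4.31, 3.76, 3.79, 3.49 and 2.54 CPM in NT 1 to 5. Every LSD1i library was above every NT library. The means were 7.14 ± 0.794 CPM in LSD1i and 3.58 ± 0.652 CPM in NT libraries (SD, n = 4 and 5), a log2 fold change of 1.00 ± 0.16 (SE; adjusted p = 0.00487). It rests on few reads, 107 to 167 raw reads per LSD1i library and 53 to 105 per NT library.

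Zfp318, on chromosome 17, has 2 fingers and no KRAB stretch, and is known in mouse B cells for letting transcription run on so that IgD can be made beside IgM. It stood at 34.9, 36.0, 46.2 and 31.3 CPM in LSD1i 1 to 4, against 25.7, 15.7, 17.4, 19.0 and 18.9 CPM in NT 1 to 5. The groups did not overlap, and NT 1 was the highest NT library. The log2 fold change was 0.94 ± 0.15 (SE; adjusted p = 0.00583), with means of 37.1 ± 6.39 CPM in LSD1i and 19.3 ± 3.80 CPM in NT libraries. B cell markers summed to 0.0563 to 0.401 CPM in LSD1i and 0.0367 to 0.278 CPM in NT libraries, on total counts without TMM adjustment. Other genes expressed in the B lineage, not all of them only there, were picked after their values were seen and differed both ways. Cd74, Pou2af1 and Dntt rose, by 1.49 ± 0.16, 0.91 ± 0.14 and 1.83 ± 0.23 on the log2 scale, and Cd79b fell by 0.43 ± 0.09 (SE). Their part in the Zfp318 difference was not tested. A processed pseudogene on the opposite strand and a small RNA gene on the same strand overlap Zfp318, and no source says that reads were counted by strand.

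Zfp945 is a KRAB gene of 18 fingers, also on chromosome 17. Its level was 8.22, 8.61, 9.42 and 10.2 CPM in LSD1i 1 to 4, against 6.59, 5.21, 5.54, 4.28 and 5.12 CPM in NT 1 to 5. Here too the groups did not overlap. The log2 fold change was 0.76 ± 0.14 (SE; adjusted p = 0.00984).

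Zfp516, on chromosome 18, has 10 fingers and is known in mouse fat for activating the thermogenic programme and for recruiting LSD1. Its level was 37.3, 35.6, 50 and 38 CPM in LSD1i 1 to 4, against 34.1, 22.7, 23.8, 21 and 25.6 CPM in NT 1 to 5. LSD1i 3 stood above the other treated libraries, and NT 1 lay just under the lowest treated one. The log2 fold change was 0.66 ± 0.15 (SE; adjusted p = 0.0383), and the call was lost in 7 of 9 fits that left out 1 library, where adjusted p ran from 0.0549 to 0.0970. A transcript on the opposite strand overlaps Zfp516.

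Zfp277, on chromosome 12, has 3 fingers and is known in mouse fibroblasts as a partner of the Polycomb protein BMI1. It was the most abundant of those that rose, with 49.5, 60.3, 57.8 and 51.7 CPM in LSD1i 1 to 4, against 38.4, 39.7, 42.2, 41.5 and 32.0 CPM in NT 1 to 5. The groups did not overlap, and the difference was the smallest of the set that rose. The log2 fold change was 0.50 ± 0.10 (SE; adjusted p = 0.0195), and adjusted p was 0.0581 without LSD1i 2 and 0.0631 without LSD1i 3.

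**Figure D2:**
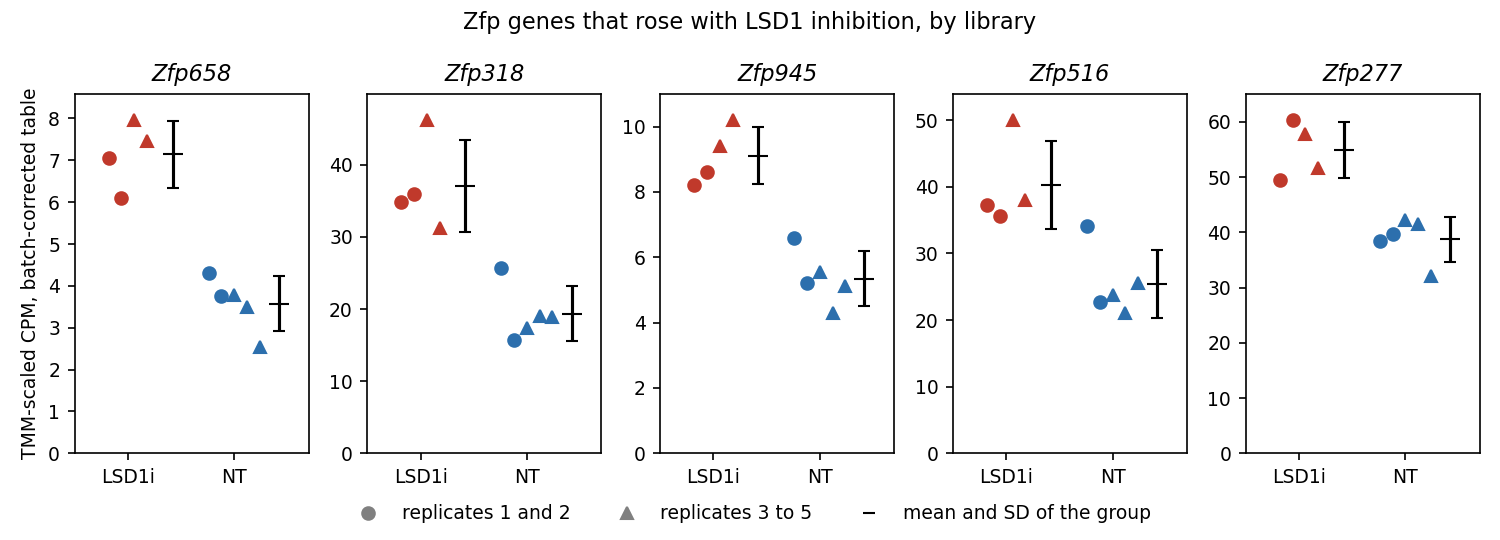
Each panel gives 1 Zfp gene that rose, with TMM-scaled CPM of the batch-corrected table on the vertical axis, LSD1i libraries in red and NT libraries in blue, circles for replicates 1 and 2, triangles for replicates 3 to 5, and the bar the mean and SD. The groups are separate in each panel, most narrowly for Zfp516, where LSD1i 2 at 35.6 CPM lies just above NT 1 at 34.1 CPM.

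The promoters of Zfp658, Zfp318, Zfp945 and Zfp277 are given because these genes rose, each as 300 bases around the RefSeq start (build GRCm38.p6), 5′ to 3′ on the gene's own strand. Capitals mark the GC box GGGCGG and the CCAAT box on either strand. They lie at chr7:43562120-43562419 on the plus strand for Zfp658, chr17:46383516-46383815 on the plus strand for Zfp318, chr17:22867085-22867384 on the minus strand for Zfp945 and chr12:40445741-40446040 on the minus strand for Zfp277.
Zfp658: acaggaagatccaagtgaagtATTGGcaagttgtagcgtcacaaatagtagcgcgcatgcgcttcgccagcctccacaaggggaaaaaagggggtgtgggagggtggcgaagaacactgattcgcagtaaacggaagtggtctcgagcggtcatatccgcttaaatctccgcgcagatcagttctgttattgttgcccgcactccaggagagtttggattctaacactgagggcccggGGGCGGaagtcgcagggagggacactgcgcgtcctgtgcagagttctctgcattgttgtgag
Zfp318: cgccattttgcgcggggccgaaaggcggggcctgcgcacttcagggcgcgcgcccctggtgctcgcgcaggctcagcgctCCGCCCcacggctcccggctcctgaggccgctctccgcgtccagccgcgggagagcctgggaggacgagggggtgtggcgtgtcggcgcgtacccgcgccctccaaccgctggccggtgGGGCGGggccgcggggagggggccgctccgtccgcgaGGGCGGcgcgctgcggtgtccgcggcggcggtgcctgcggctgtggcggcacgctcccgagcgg
Zfp945: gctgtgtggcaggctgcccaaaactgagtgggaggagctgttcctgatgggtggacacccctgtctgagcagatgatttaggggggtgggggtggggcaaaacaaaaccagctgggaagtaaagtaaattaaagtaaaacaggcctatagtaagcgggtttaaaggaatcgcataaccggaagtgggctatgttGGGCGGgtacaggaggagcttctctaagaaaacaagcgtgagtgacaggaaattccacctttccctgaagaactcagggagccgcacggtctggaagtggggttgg
Zfp277: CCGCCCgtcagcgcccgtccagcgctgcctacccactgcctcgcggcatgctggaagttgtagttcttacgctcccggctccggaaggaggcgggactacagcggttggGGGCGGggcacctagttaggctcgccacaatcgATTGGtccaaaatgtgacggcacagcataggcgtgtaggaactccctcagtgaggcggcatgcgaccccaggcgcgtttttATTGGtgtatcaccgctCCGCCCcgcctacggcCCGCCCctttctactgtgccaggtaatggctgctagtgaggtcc

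Zfp318 and Zfp277 had CpG-dense promoters, with 49 and 26 CpG pairs, while Zfp658 had 19 and Zfp945 had 7. The median was 16 over the 196 members with a promoter in the table and 7 over all 27025 promoters. All 4 promoters shown, which leave out that of Zfp516, held at least 1 GC box, with 4 in Zfp277, 3 in Zfp318 and 1 each in Zfp658 and Zfp945. A CCAAT box was present in Zfp277 and Zfp658. Of all promoters, 35.9% held the GC box and 37.9% the CCAAT box. The letters AATC, the core that GFI1 reads, occurred 3 times in Zfp658, 2 times each in Zfp945 and Zfp277 and 0 times in Zfp318, and in 73.7% of all promoters. The longer AAATCAC was in 0 of the 4 and in 3.16% of all promoters.

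The direction of the 5 differences was also looked at within each batch, using raw counts. In the second batch, whose names match in both tables, raw reads of Zfp318 were 584 and 643 in LSD1i 3 and 4, against 332, 304 and 348 in NT 3 to 5. Log2 fold changes there were 1.23 for Zfp658, 1.04 for Zfp318, 0.98 for Zfp945, 0.85 for Zfp516 and 0.49 for Zfp277. Zfp318 (adjusted p = 0.0168) and Zfp516 (adjusted p = 0.0356) rose in the second batch alone, where 0.844% of other genes rose and 0.128% fell. In the first batch, with batch-corrected names, the same genes were at 0.67, 0.70, 0.50, 0.24 and 0.47. There 0 members passed in edgeR, against 0.0855% of other genes. At an unadjusted p under 0.05, 2 members were higher and 0 lower in that batch, with no share of other genes to set beside them. With both batches and the batch as a term on raw counts, 3 members rose (Zfp658, Zfp318 and Zfp945) and 0 fell, against 1.33% and 0.363% of other genes. The 3 include Zfp658, whose place in the group came from the treated libraries.

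**Figure D3:**
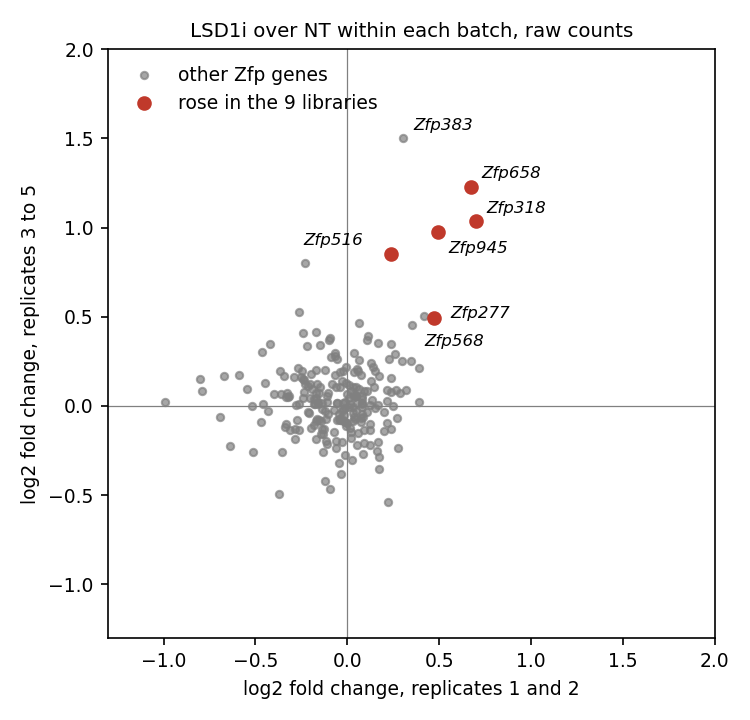
Each point is 1 of 233 Zfp genes, with the log2 fold change of LSD1i over NT in raw counts of replicates 1 and 2 on the horizontal axis and of replicates 3 to 5 on the vertical axis. The 5 genes that rose (red) lie above 0 on both axes, while the other members scatter around the origin.

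Over the whole group, fold changes in one batch said little about the other. Across the 233 members the fold changes of the batches correlated at Pearson r = 0.13, and 119 members, or 51.1%, had the same sign in both. Across the other genes r was 0.26, and 47.6% had the same sign. These values are across genes of the same libraries, which are not independent replicates.

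A few further members came near the threshold. Zfp568, a KRAB gene that silences a placental Igf2 transcript in mouse embryos, stood at 25.8, 32.0, 30.1 and 29.2 CPM in LSD1i 1 to 4, against 22.1, 23.1, 24.1, 18.4 and 22.6 CPM in NT 1 to 5. The groups did not overlap, yet the log2 fold change of 0.41 ± 0.10 (SE) missed the threshold in edgeR (adjusted p = 0.0544) and passed it in DESeq2 (adjusted p = 0.00678). Zfp383, chosen after its values were seen, had 7.06, 5.62, 10.8 and 8.74 CPM in LSD1i 1 to 4, against 6.86, 3.36, 4.26, 4.39 and 2.0 CPM in NT 1 to 5. NT 1 lay inside the treated range, and the log2 fold change was 0.94 ± 0.30 (SE; adjusted p = 0.140). Like Zfp658, Zfp383 reached a mean count of 100 only in LSD1i libraries, so its difference is not independent of the choice. Zfp944 had the lowest fold change of the group, -0.42 ± 0.13 (SE; adjusted p = 0.139), with 8.43 to 9.38 CPM in LSD1i and 10.2 to 15 CPM in NT libraries.

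Zfp568 and Zfp383 lie in the largest group of neighbouring members, 12 Zfp genes on chromosome 7. Of the 12, 0 passed in edgeR and 2 were called higher in DESeq2, against 2.05% and 3.37% of other genes higher. At an unadjusted p under 0.05, which 7.16% of other genes met as higher, 4 were higher and 0 lower in LSD1i. They were looked at after their values were seen, and the group is not singled out by a test. They were Zfp568, Zfp383, Zfp382 at 0.27 ± 0.11 (SE; adjusted p = 0.281) and Zfp82 at 0.24 ± 0.11 (SE; adjusted p = 0.322). Of these, Zfp383 came into the members through the treated libraries, so counting it here is not independent of its difference. The other 8 ran from -0.11 to 0.14, and the median of the 12 was 0.02. Of all members, 131 lay in 41 groups of neighbours (within 3 protein-coding genes of each other) and 101 alone. Chromosome 7 held 63 members, 1 of which rose, Zfp658, whose place in the group came from the treated libraries. Chromosome 17 held 30, 2 of which rose, and chromosome 13 held 19, 0 of which rose (edgeR; 0 at an unadjusted p under 0.05 and 0 in DESeq2). With 2.05% of other genes higher, such counts are too small to set 1 chromosome apart.

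The most abundant members did not pass. Zfp106, an RNA-binding protein needed by motor neurons in mice, averaged 293 ± 38.6 CPM in LSD1i and 289 ± 60.4 CPM in NT libraries. Zfp207, which loads the checkpoint protein BUB3 onto mitotic chromosomes, averaged 287 ± 38.6 CPM in LSD1i and 275 ± 16.6 CPM in NT libraries. Zfp292, a large transcription factor, ran from 192 to 281 CPM in LSD1i and from 131 to 276 CPM in NT libraries. Zfp52, Zfp281, Zfp445, Zfp740 and Zfp638 completed the 8 with the highest CPM. Their log2 fold changes lay between -0.08 (Zfp445) and 0.30 (Zfp52, ± 0.14 SE; adjusted p = 0.365). Per kilobase of exon, Zfp52 was highest at 57.2 CPM per kb, followed by Zfp207 at 42.1, and the median member stood at 4.14. As a class the members were low: their median level was 18.3 CPM, against 44.3 CPM for the other genes. In bulk RNA, fewer cells that express a gene and less RNA per cell cannot be told apart.

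By role, the members linked to LSD1 were Zfp516, which rose, and Zfp217, whose human counterpart ZNF217 sits in CoREST and LSD1 complexes. Zfp217 averaged 78.4 ± 5.99 CPM in LSD1i and 71.5 ± 4.71 CPM in NT libraries (log2 fold change 0.13 ± 0.08 SE; adjusted p = 0.538). Of the retroelement and imprint silencers, 4 of 6 reached the mean count and 0 passed in edgeR (1 at an unadjusted p under 0.05 and 1 in DESeq2, both Zfp568). Of other genes, 2.05% rose in edgeR, 7.16% were higher at an unadjusted p under 0.05 and 3.37% rose in DESeq2. At such rates a list of 4 leaves little to read. Zfp809, which silences murine leukaemia virus and related endogenous retroviruses, averaged 18.4 ± 1.05 CPM in LSD1i and 20.4 ± 3.58 CPM in NT libraries. Zfp932, another repressor of endogenous retroviruses, was at -0.12 ± 0.11, and Zfp445, which guards genomic imprints, at -0.08 ± 0.11 on the log2 scale (SE).

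Members that act on RNA or ribosomes numbered 10, of which 0 passed in edgeR, 0 had an unadjusted p under 0.05 and 0 passed in DESeq2. Of other genes, 2.05% rose and 0.887% fell in edgeR, and 3.37% and 1.89% in DESeq2. At an unadjusted p under 0.05, 7.16% were higher and 6.03% lower. At such rates a list of 10 leaves little to read. The median log2 fold change of these 10 members was -0.02. Zfp36 (tristetraprolin), which speeds decay of cytokine mRNAs, had the widest spread, with 27.9, 21, 35.3 and 34.4 CPM in LSD1i 1 to 4, against 32.2, 19.8, 21.6, 23.6 and 12.4 CPM in NT 1 to 5. The groups overlapped, and the log2 fold change was 0.43 ± 0.24 (SE; adjusted p = 0.453). Zfp598, the ubiquitin ligase that marks collided ribosomes, was at -0.15 ± 0.10, and Zfp622, a factor of large ribosomal subunit maturation, at -0.07 ± 0.12 (log2, SE). Of the lymphocyte-linked genes, Zfp318 rose, while Zfp335, needed for T cell maturation in mice, averaged 52.7 ± 5.58 CPM in LSD1i and 52.9 ± 5.65 CPM in NT libraries. Zfp91, a ubiquitin ligase of the NF-kB pathway, was at 0.06 ± 0.08 (log2, SE).

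Of 22 corepressor genes that KRAB proteins work through, 0 passed in edgeR, against 2.05% of other genes higher and 0.887% lower, a background that leaves little to read in a list of this size (1 higher and 0 lower at an unadjusted p under 0.05, and 1 higher in DESeq2). Trim28 averaged 470 ± 34.3 CPM in LSD1i and 448 ± 80.0 CPM in NT libraries (log2 fold change 0.07 ± 0.13 SE). Setdb1 was at -0.01 ± 0.08 and Chd3, a remodeller of the NuRD complex, at 0.26 ± 0.08 (log2, SE; adjusted p = 0.123 for Chd3). Other zinc finger families, by symbol, likewise gave 0 calls in edgeR among 35 Zbtb, 16 SCAN, 11 Klf, 16 CCCH and 6 MYM genes. At an unadjusted p under 0.05 these held 1, 2, 1, 2 and 0 genes, and DESeq2 called 1, a Klf gene. Klf2, a regulator of T cell trafficking, came nearest, with 16.4 ± 2.94 CPM in LSD1i and 9.23 ± 2.76 CPM in NT libraries (log2 fold change 0.82 ± 0.21 SE; adjusted p = 0.0571).

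A KRAB A-box-like stretch was found in 123 of the 232 members with an annotated protein, and 109 had none. KRAB members had a median of 12 fingers and the others 7, and the most, 36, were in Zfp142. With LSD1 inhibition 2 of 123 KRAB members (1.63%) and 3 of 109 others (2.75%) rose, both near the 2.05% of other genes. The 2 were Zfp945 and Zfp658, and the place of Zfp658 in the group came from the treated libraries. The median log2 fold change was -0.00 with KRAB and -0.03 without. The difference between the classes was not tested.

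Far more members differed between the batches than between the treatments. In raw counts, with treatment in the model, 75 KRAB members (61.0%) were higher and 4 (3.25%) lower in the second batch than in the first, with a median log2 ratio of 0.49. Of the members without KRAB, 23 (21.1%) were higher and 29 (26.6%) lower, with a median of -0.14. Over all members 98 (42.1%) were higher and 34 (14.6%) lower, against 19.0% and 22.3% of other genes. Zfp758, a KRAB gene, had the largest ratio, 1.63 on the log2 scale, with 342, 372, 470, 419 and 387 raw reads in LSD1i 3 and 4 and NT 3 to 5, against 135, 100, 173 and 119 in LSD1i 1 and 2 and NT 1 and 2. Zfp598 went the other way at -0.91, with 924, 946, 1195, 1260 and 1096 raw reads in second-batch libraries, against 1819, 2048, 2752 and 1769 in first-batch libraries. Within LSD1i libraries alone 71 KRAB members (57.7%) were higher and 4 (3.25%) lower in the second batch, against 17.9% and 20.5% of other genes. Within NT libraries alone 29 (23.6%) were higher and 1 (0.813%) lower, against 5.41% and 8.78% of other genes.

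The batch ratio moved with base composition. Transcripts of KRAB members had a median GC content of 42%, those without KRAB 51.1% and other genes 49.9%. Across 232 members the batch ratio and GC content correlated at r = -0.79, and across other genes at r = -0.54, while the fold change of LSD1i over NT and GC content correlated at r = -0.02 across members. Among genes of 38% to 42% GC, the median batch ratio was 0.62 in 45 KRAB members, 0.51 in 15 members without KRAB and 0.37 in 841 other genes. Between 50% and 60% GC it was -0.03 in 14 KRAB members, -0.31 in 52 without and -0.22 in 4191 other genes. Points of these correlations share the same libraries, and the part of GC content in the batch ratio was not tested.

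**Figure D4:**
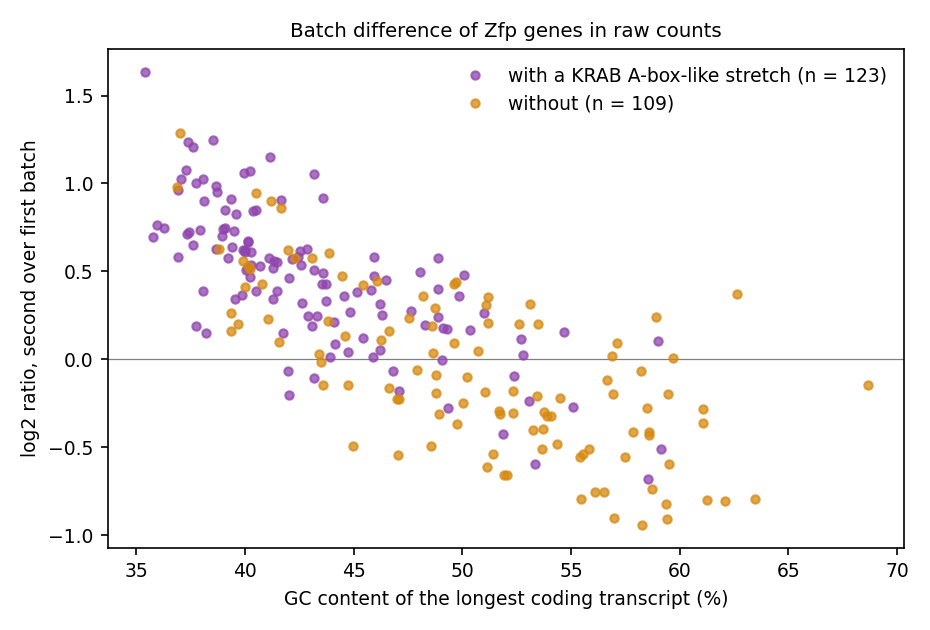
Each point is 1 Zfp gene, with the GC content of its longest coding transcript (%) on the horizontal axis and the log2 ratio of the second over the first batch in raw counts on the vertical axis, in purple for 123 genes with a KRAB A-box-like stretch and in orange for 109 without. The ratio falls with GC content in both classes, r = -0.74 with KRAB and r = -0.69 without.

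After the authors' batch correction, the members still moved together between libraries of 1 group. Their summed level was 7260, 7170, 7730 and 7200 CPM in LSD1i 1 to 4, against 8020, 6830, 7240, 7600 and 6500 CPM in NT 1 to 5. The NT libraries thus held both the highest and the lowest sum. The means were 7340 ± 260 CPM in LSD1i and 7239 ± 602 CPM in NT libraries (SD, n = 4 and 5), and 7226 ± 383 CPM in NT 2 to 4. NT 1 was above NT 5 in 186 members (79.8%), with a median log2 difference of 0.25, and in 57.6% of other genes, with a median of 0.08. The other zinc finger families shifted the same way, with NT 1 above NT 5 in 30 of 35 Zbtb (85.7%), 15 of 16 SCAN (93.8%), 14 of 16 CCCH (87.5%), 8 of 11 Klf (72.7%) and 5 of 6 MYM genes (83.3%). Their median log2 differences ran from 0.21 in CCCH to 0.45 in MYM genes, so the shift is not particular to Zfp genes. NT 1 is also the library with the high Rn45s share, whose part in this was not tested.

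**Figure D5:**
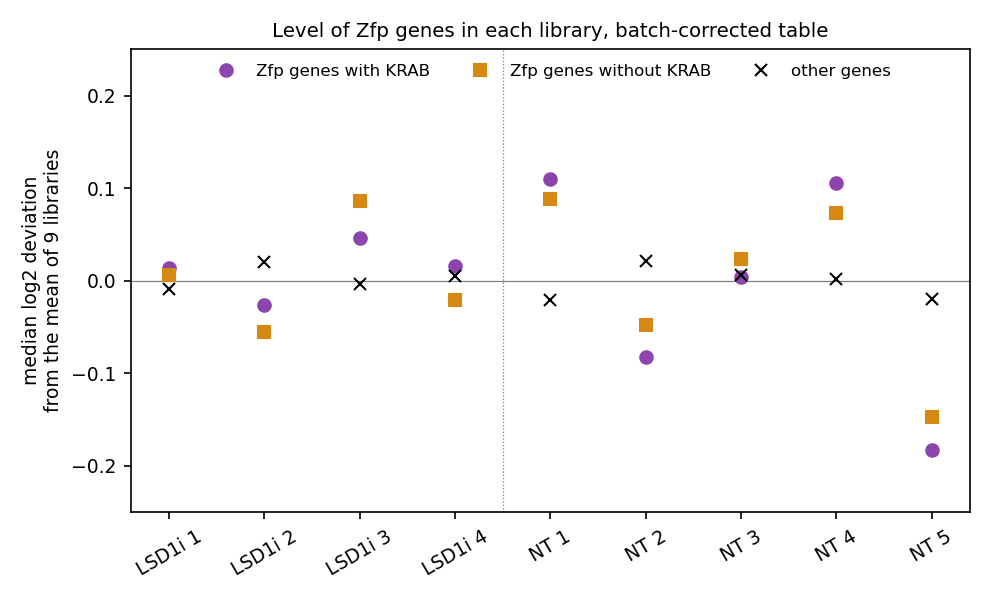
For each library, LSD1i 1 to 4 and then NT 1 to 5, the vertical axis gives the median log2 deviation of genes from their mean over 9 libraries, for Zfp genes with KRAB (circles), Zfp genes without (squares) and other genes (crosses). Both Zfp classes lie highest in NT 1 (0.11 and 0.09) and lowest in NT 5 (-0.18 and -0.15), while the median of all other genes stays within 0.02 of 0. The other zinc finger families, not drawn, lie the same way, Zbtb genes at 0.13 in NT 1 and -0.22 in NT 5 and SCAN genes at 0.16 and -0.26.

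The widest spread was seen in single members, chosen after their values were seen. Zfp395 stood at 16.4, 11.4, 46.5 and 20.2 CPM in LSD1i 1 to 4, against 50.9, 11.9, 31.5, 13.9 and 7.79 CPM in NT 1 to 5. Its range within NT libraries exceeded any difference between the groups (log2 fold change 0.01 ± 0.54 SE). Zfp609 ran from 21.8 to 34.9 CPM in LSD1i and from 15.9 to 53.8 CPM in NT libraries, and Zfp871 from 70.4 to 104 CPM in LSD1i and from 50.1 to 148 CPM in NT libraries. In all 3, NT 1 was the highest library and NT 5 the lowest.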

How the data were processed

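RNA of 9 libraries of activated mouse CD8+ cells was sequenced, grouped and numbered by their sample titles. A SMARTer mRNA kit was used on total RNA, per the labels' protocols. STAR, featureCounts, edgeR and the build mm9 are named, without versions, per the submitters' processing notes, and the sources used here give no strand setting. The authors deposited raw read counts, estimated counts after a batch correction whose method is not given, and a table of their own comparison. That deposited table holds log2 fold changes, a test score (F) and p-values, of which the false discovery rates and marks were used.

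The batch-corrected counts, already whole numbers, entered edgeR 4.0.16 (R 4.3.3, quasi-likelihood test) after TMM scaling and a low-count filter by group with a minimum count of 10 and a minimum total of 15. P-values were adjusted by Benjamini-Hochberg over all 11981 genes tested, with a call at 0.05. Adjusted p-values without a named tool come from this test, which does not charge for the batch correction already made. Log2 fold changes are LSD1i over NT with standard errors. Levels other than marker sums are CPM on TMM-adjusted library sizes with SD over 4 LSD1i or 5 NT libraries. Marker sums used total counts without TMM adjustment, and log2 deviations a pseudocount of 0.5. Libraries of the raw and corrected tables were matched by the genes at 0 in only 1 table, which were 0 for each matched pair and at least 1336 for the next best. Batches came from how corrected and raw counts differed (log2 ratio), whose deviations correlated at 0.75 to 0.98 within replicates 1 and 2 and replicates 3 to 5, and at -0.96 to -0.79 between these sets. Every pair of libraries within a group differed beyond sampling noise (lowest chi-square per degree of freedom 7.10, for NT 3 and NT 4).

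Fingers and a KRAB A-box-like stretch (at least 10 of 13 positions) were searched in the longest open reading frame of GENCODE M21 transcripts. Promoters came from RefSeq. Neither table is of the build mm9, so they were used for names, composition and gene order. The members and gene lists were chosen with earlier results of these data known. Genes named are those that passed, the 8 of highest CPM, the role lists and those beside the mean-count threshold, and others are named as chosen after their values were seen. Role genes below the mean count (Zfp708, Zfp57 and Zfp683) have no value here. Alternatives were DESeq2 1.42.0, other scaling, filters, thresholds and tables, single batches, a replicate block and leaving out each library. The script was tested on simulated data.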

Additional observations from a re-analysis of the deposited data

Results flagged for a closer look

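In groups of 4 or 5 libraries, 7 of 62 sets of values held a library far from the others by Dixon's criterion, where chance gives about 1 in 20. In LSD1i 3, Zfp516 stood at 50 CPM, against 35.6 to 38 CPM in the other LSD1i libraries. In the same library Zfp292 stood at 281 CPM, against 192 to 200 CPM, and Zfp593 at 33.1 CPM, against 41.9 to 43.6 CPM. The summed level of all Zfp genes was 7730 CPM in LSD1i 3, against 7170 to 7260 CPM in the other LSD1i libraries, and that of members without KRAB was 4840 CPM, against 4420 to 4480 CPM. Zfp740 was lower in LSD1i 4, at 115 CPM, against 125 to 126 CPM. Zfp93 was lower in NT 5, at 4.49 CPM, against 5.97 to 6.13 CPM in the other NT libraries. LSD1i 3 gave 5 of the 7 values. These 5 are not separate observations, as the sum of all Zfp genes contains the other sum and the single genes. The 62 sets come from the same libraries, so the rate of 1 in 20 is only a rough guide.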

How the results depend on the processing

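Of 233 members, 5 rose, and 0 fell under any alternative. The number that rose was 0 in the first batch alone and 0 with the raw table's own names, where edgeR also called 0 of the other genes. At an unadjusted p under 0.05 the raw names gave 2 members higher and 1 lower, with no share of other genes to set beside them. The number that rose was 3 for raw counts with the batch term, 3 for those counts with the replicate block and 2 in the second batch alone. Of other genes 1.33%, 1.89% and 0.844% rose in these 3 settings. With a mean count of at least 200, which 193 members reached, the number that rose was 3. No share of other genes is given there, so that count cannot be set against a background. DESeq2 called 7, against 3.37% of other genes. Leaving out 1 library gave 3 to 6, against 1.25% to 2.5% of other genes, with 3 without LSD1i 3, against 1.49%. Whether replicate numbers pair the samples is not given. In deviations from group means, same-numbered libraries correlated at -0.38 to 0.46 and differently numbered ones at -0.79 to 0.79, which does not decide it. With the replicate block on corrected counts 4 rose, Zfp945 being lost (adjusted p = 0.0532), against 1.72% of other genes. Zfp516 lost its call in 11 of 18 settings, Zfp277 in 7, Zfp945 in 4, Zfp658 in 3 and Zfp318 in 2. The median log2 fold change of members stayed between -0.04 and 0.03 throughout. In NT libraries alone, 32 members (13.7%) were higher, 29 of them with KRAB, and 11 (4.72%) lower in the second batch. Of other genes 5.41% were higher and 8.78% lower there. For this batch difference, leaving out 1 library gave 76 to 109 members higher (32.6% to 46.8%), 23 to 33 lower (9.87% to 14.2%) and 59 to 84 KRAB members higher. Among other genes 13.9% to 24.5% were higher and 17.7% to 26.3% lower in these fits. The causes were not tested. Depth was low for Zfp658, with 53 to 167 raw reads per library.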
